A study of Mus musculus with 14 samples.

Results

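The data describe 10 genes of sinusoid capillarization and endothelial cell contacts in liver sinusoidal endothelial cells (LSECs), out of 54524 genes counted. The members were given by name: Cd34, Plvap, Pecam1, Cav1, Cdh5, Cldn5, Esam, F11r, Jam2 and Tjp1. All 10 were found in the count table by their Ensembl identifier and all 10 passed the filter on low counts, as did 26626 genes in all. The counts of these members ran from 234 for Cav1 to 151352 for Esam in a single library, and every member other than Cav1 had at least 1898 counts in every library.

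LSECs line the sinusoids of the liver and differ from other endothelium by open fenestrae and by the lack of an organised basement membrane. In capillarization, which is known from injured and fibrotic livers, LSECs lose fenestrae, lay down a basement membrane and take on markers of continuous endothelium such as CD34. Endothelial cells hold together through adherens junctions, built on VE-cadherin (Cdh5), and tight junctions, built on claudins, junctional adhesion molecules and the scaffold ZO-1 (Tjp1). Caveolae, membrane pits formed by caveolins and cavins, and PLVAP, the protein of fenestral and caveolar diaphragms, belong to transport across the endothelium.

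LSECs came from male Balb/c mice of 10 to 12 weeks by the labels, which give no genotype, while the study's methods state a different age range. The healthy group held 4 untreated mice. The other groups had received CCl4, a solvent that injures hepatocytes, in mineral oil by intraperitoneal injection of 0.5 µL per g body weight, and were sampled at day 1 (n = 2), day 3 (n = 4) and day 7 (n = 4). The healthy mice were not given the oil, so that CCl4 and its vehicle cannot be told apart. Cells were sorted as CD32 positive and as negative for F4/80, UV autofluorescence and propidium iodide. The study's methods also name a CD45-negative gate, which is meant to remove leukocytes. LSECs carry CD32b, the product of Fcgr2b, whose own level fell at day 3. Further day 1 samples were left out by the study for low RNA integrity.

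The endothelial label was checked against 8 endothelial marker genes (Cdh5, Pecam1, Tie1, Tek, Erg, Egfl7, Kdr and Eng), all with counts in every group. Their summed CPM (counts relative to library size, scaled by the TMM method) was 5420 to 6310 in healthy LSECs and 3232 to 4006 at day 1. It was 2306 to 5458 at day 3, with replicate 4 above the lowest healthy library, and day 7 gave 3205 to 4352. Cdh5 and Pecam1 are members, so this sum is not independent of the members. Its genes also moved in different directions. At day 1 mean Kdr went from 2216 to 677 CPM and mean Cdh5 from 289 to 604 CPM. The marker sums of other cell types moved with the groups. The sum of 12 stellate cell markers was 156.1 to 283.8 CPM in healthy LSECs and 858.6 to 2689 at day 3, and it reached 468.3 to 7650 at day 7. Of these 12 genes, 10 were called higher at day 3 (4.62% of all genes were) and 11 at day 7 (2.19%) by edgeR. The sum of 10 monocyte and neutrophil markers, cells that a CD45-negative gate should remove, was 522.0 to 1418 CPM in healthy LSECs, 8579 and 4490 in the day 1 libraries and 4202 to 9688 at day 7. Of these markers, 5 were called higher at day 1 (2.42% of all genes), 4 at day 3 (4.62%) and 1, Lyz2, at day 7 (2.19%). At day 3 the sum was 13270 and 8072 CPM in replicates 1 and 2 and 1498 and 1384 in replicates 3 and 4. S100a8 was 4.03 to 34.0 CPM in healthy LSECs, 2140 and 736 at day 1, and 28.9 to 45.8 at day 7. S100a9 was 9.99 to 81.8 CPM in healthy LSECs, 3692 and 1595 at day 1, and 46.5 to 90.0 at day 7. Both genes were picked from the list after their values were seen. Healthy replicate 4 stood apart by 10750 CPM of 10 hepatocyte markers, against 326.0 to 550.5 in the other healthy mice. That sum was 196.9 and 253.5 CPM in the day 1 libraries, but 1248 to 4021 at day 3 and 1144 to 8412 at day 7, and no hepatocyte marker was called on any day by edgeR. The sum of 7 cholangiocyte markers went from 80.02 to 193.8 CPM in healthy LSECs to a range of 598.6 to 5256 at day 7. The 1 marker called higher was Spp1 (2.19% of all genes were higher). Krt19 was 1.41 to 5.04 CPM in healthy LSECs and 1.90 to 11.7 at day 7, and Epcam was 4.02 to 6.49 and 2.17 to 7.00. In day 7 replicate 2, with the highest sum, Krt19 was 2.88 and Epcam 3.16 CPM. Every gene of these lists had a count in at least 1 library of each group. In bulk RNA, a change in the share of endothelial cells and a change in RNA per endothelial cell cannot be told apart, and the part of other cells in the results below was not tested beyond the fits that leave out libraries.

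**Figure D1:**
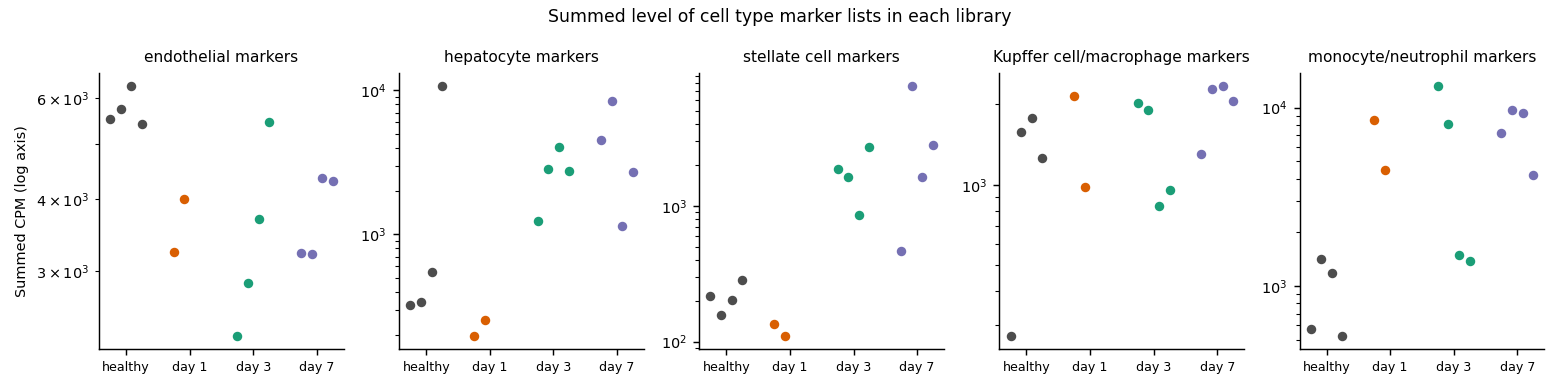
Summed CPM (log axis) of the marker lists of endothelial cells, hepatocytes, stellate cells, Kupffer cells or macrophages, and monocytes or neutrophils, 1 point per library in the order of the replicate numbers. Stellate cell sums at day 3 and day 7 lay above every healthy library, and day 3 replicates 1 and 2 held the highest monocyte and neutrophil sums of that day.

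At day 3, the time with most calls, 3 members passed the test. Over all genes tested it was also the time with most calls, at 7.19%, against 4.06% at day 1 and 3.18% at day 7. The call of Cd34, 1 of these 3, was held by only 3 of 23 alternatives. The 250 bases before the start of the 3 genes are shown because this is the stretch of sequence nearest to where their transcripts begin. The sequences are from RefSeq on build GRCm38.p6, which lists a promoter for 5 of the 10 members, and are printed 5′ to 3′ on the strand of the gene (the plus strand for all 3). The regions are chr1:194938571-194938820 for Cd34, chr16:18776597-18776846 for Cldn5 and chr1:171437311-171437560 for F11r. The start meant here is that of RefSeq. The regions of Cd34 and F11r run past the GENCODE gene starts given below, 194938819 and 171437535. Capitals mark matches, on either strand, to short motifs known from endothelial or inducible promoters. These were CGGAAG for ETS factors, with CAGGAAG as a second ETS form, AGATAA for GATA factors, CACCC for KLF factors, ACAAT for SOX factors, GTAAACA for forkhead factors, TGAGTCA for AP-1, and TATAAA as the TATA box. No printed match overlaps another.
Cd34: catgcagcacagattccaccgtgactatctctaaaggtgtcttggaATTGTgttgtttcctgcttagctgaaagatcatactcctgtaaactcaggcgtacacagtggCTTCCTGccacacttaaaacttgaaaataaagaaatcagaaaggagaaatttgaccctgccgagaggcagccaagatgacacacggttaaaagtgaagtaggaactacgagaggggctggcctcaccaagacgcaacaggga
Cldn5: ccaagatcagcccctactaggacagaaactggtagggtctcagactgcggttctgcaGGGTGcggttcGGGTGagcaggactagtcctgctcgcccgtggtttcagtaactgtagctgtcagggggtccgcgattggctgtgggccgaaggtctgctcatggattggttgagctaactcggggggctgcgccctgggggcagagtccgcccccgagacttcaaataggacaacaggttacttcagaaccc
F11r: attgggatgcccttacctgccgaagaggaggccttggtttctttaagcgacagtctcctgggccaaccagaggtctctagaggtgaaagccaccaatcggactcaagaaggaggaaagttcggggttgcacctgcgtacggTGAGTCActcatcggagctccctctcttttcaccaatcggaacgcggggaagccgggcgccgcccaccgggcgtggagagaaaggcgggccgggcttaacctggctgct

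The 3 promoters share none of these matches. Cd34 held the SOX letters (in 27.7% of 32851 mouse promoters of this length) and the ETS letters CAGGAAG (10.8%), with a GC content of 46.4%. Cldn5 held the KLF letters at 2 places (at least 1 match in 52.0% of promoters), with a GC content of 59.6%. F11r held the AP-1 letters (4.46% of promoters), 109 bases before the RefSeq start, with a GC content of 60.0%. A match of letters describes the sequence and shows no binding.

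In healthy LSECs, levels were compared between genes as CPM per kb of exon. Cldn5 was highest (424.7 ± 69.6 CPM per kb, SD, n = 4), followed by Plvap (336.3 ± 30.7) and Esam (310.3 ± 20.1), and Plvap and Esam differed by less than their SDs together. F11r (105.5 ± 8.53), Cdh5 (68.9 ± 11.3), Pecam1 (62.7 ± 8.13) and Jam2 (50.6 ± 2.09) stood in the middle, with Cdh5 and Pecam1 within their spread. Tjp1 (16.2 ± 1.04), Cd34 (5.43 ± 1.32) and Cav1 (2.82 ± 0.322) were lowest. The order changed with time. At day 1 Esam was first (544.6 ± 51.5, n = 2) and Cldn5 (144.9 ± 37.0), Cdh5 (143.6 ± 4.69) and Jam2 (131.7 ± 37.4) lay within each other's spread. At day 7 Cldn5 (254.6 ± 42.8, n = 4) and Plvap (211.2 ± 47.9) led again within their spread, and Jam2 (27.5 ± 4.12) was below Pecam1 (43.1 ± 7.76).

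Each day was compared with healthy LSECs to ask how these genes change after acute injury. At day 1, 1 member was called higher (2.42% of all genes tested were) and 1 lower (1.64%). At day 3, 1 was higher (background 4.62%) and 2 were lower (2.58%), and at day 7 none was higher (2.19%) and 1 was lower (0.992%). Calls are at an adjusted p under 0.05 of edgeR's quasi-likelihood test. At an unadjusted p under 0.05 there were 5 members at day 1 (17.9% of all genes), 5 at day 3 (22.2%) and 6 at day 7 (21.1%). The median log2 fold change of the members was -0.03 at day 1, -0.31 at day 3 and -0.60 at day 7, beside -0.03, 0.18 and 0.02 over all genes tested. Counted by groups that do not overlap, 3 members were higher and 3 lower at day 1 (20% and 17.9% of all genes), 0 and 4 at day 3 (7.53% and 6.84%), and 0 and 6 at day 7 (8.72% and 12.1%).

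**Figure D2:**
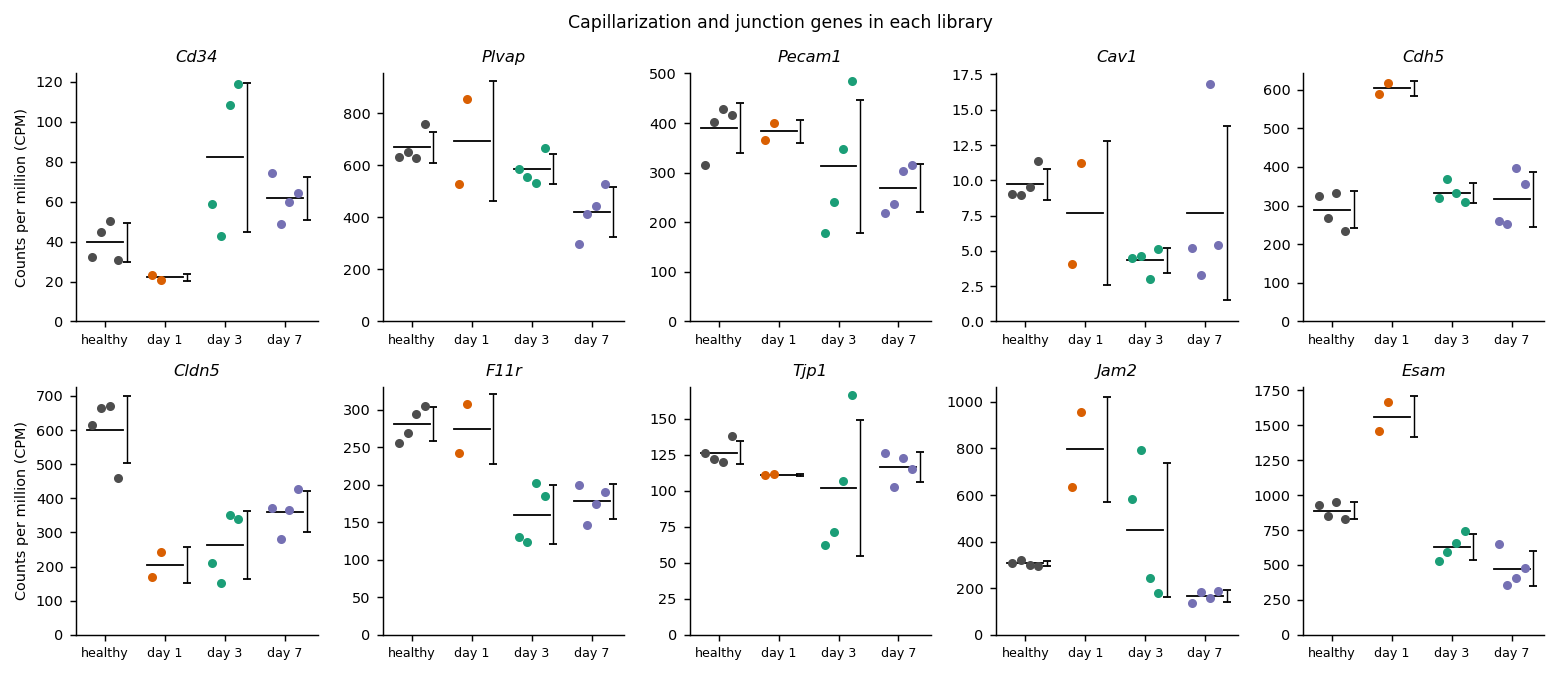
Level of each member in CPM (axis from 0), 1 point per library in the order of the replicate numbers, with the group mean (line) and SD (bar) for healthy (n = 4), day 1 (n = 2), day 3 (n = 4) and day 7 (n = 4) LSECs. Cldn5 lay below every healthy library on all 3 days, and Cd34, Jam2, Pecam1 and Tjp1 were spread widely at day 3. Day 3 replicate 4, the library with the fewest genes counted (22986), held the highest Cd34, Pecam1 and Tjp1.

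**Figure D3:**
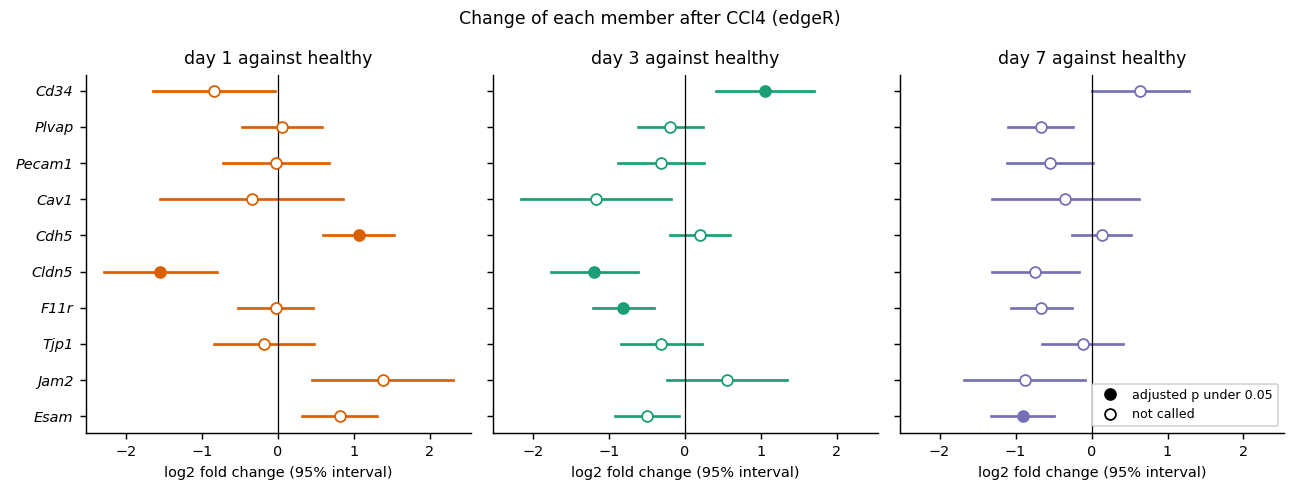
Log2 fold change of each member against healthy LSECs with its 95% interval from edgeR, for day 1, day 3 and day 7. Filled points passed an adjusted p of 0.05: Cdh5 and Cldn5 at day 1, Cd34, Cldn5 and F11r at day 3, and Esam at day 7.

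Cd34 encodes a sialomucin of capillary endothelium and is a marker of capillarized sinusoids. The gene lies at chr1:194938819-194961279 on the plus strand of GRCm38, and 2.03% of its exon bases are shared with another annotated gene, whose reads cannot be separated without strand. Its level was 32.3, 45.0, 50.3 and 30.6 CPM in healthy LSECs, 23.2 and 20.9 at day 1, 58.7, 42.8, 108.5 and 118.8 at day 3, and 74.5, 48.7, 59.6 and 64.1 at day 7. Both day 1 libraries were below all healthy ones, and 3 of 4 libraries were above all healthy ones at day 3 and again at day 7. The log2 fold change was -0.84 ± 0.37 (SE) at day 1 (edgeR adjusted p = 0.255), 1.06 ± 0.30 at day 3 (edgeR adjusted p = 0.0484) and 0.64 ± 0.30 at day 7 (edgeR adjusted p = 0.233). The call at day 3 was held by 3 of 23 alternatives, with adjusted p from 0.0111 to 0.268, and of the 14 fits that leave out 1 library only that without day 3 replicate 2 kept it. The lowest value, 0.35 (limma-voom, adjusted p = 0.268), was that of the fit that also weights libraries by quality. The part of the weights in this value was not tested. Without day 3 replicate 4 the value was 0.75 (edgeR adjusted p = 0.122), without day 3 replicate 3 it was 0.78 (adjusted p = 0.188), and without healthy replicate 4 and day 3 replicate 4 together it was 0.66 (adjusted p = 0.216).

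The difference between day 3 and day 1 was larger for Cd34 than either difference from healthy LSECs. The 4 day 3 libraries were all above the 2 day 1 libraries, with a log2 fold change of 1.90 ± 0.40 (edgeR adjusted p = 0.0241). In this comparison 1 member was higher, beside 1.57% of all genes, and 1 lower (Esam), beside 0.969%. Leaving out either day 1 library ended the call (edgeR adjusted p = 0.325 without replicate 1 and 0.323 without replicate 2), as did leaving out day 3 replicate 3 (0.0732), day 7 replicate 3 (0.054) or day 7 replicate 4 (0.0577), with 1.66 to 1.93 on the log2 scale. Day 7 did not differ from day 3 by the test (-0.41 ± 0.29, edgeR adjusted p = 0.484).

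Plvap, which encodes the diaphragm protein of fenestrae and caveolae, is at chr8:71497765-71511752 on the minus strand. Its level was 633, 653, 629 and 758 CPM in healthy LSECs, 530 and 855 at day 1, 584, 557, 532 and 668 at day 3, and 297, 411, 445 and 526 at day 7. The day 7 libraries were all below the healthy ones and below the day 3 ones. The log2 fold change at day 7 was -0.67 ± 0.20 and did not pass (edgeR adjusted p = 0.0835, and 0.0200 to 0.206 over the alternatives, of which 4 of 23 called it). The day 1 libraries lay on both sides of all healthy ones, and the 95% interval of that log2 change ran from -0.48 to 0.58.

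Pecam1 (chr11:106654217-106750628, minus strand) encodes CD31, an adhesion molecule at contacts between endothelial cells. Its level was 316, 401, 428 and 416 CPM in healthy LSECs, 367 and 399 at day 1, 179, 241, 348 and 485 at day 3, and 218, 237, 303 and 315 at day 7. The day 7 libraries lay below all healthy ones, the highest of them (315.3 CPM) close to the lowest healthy library (316.1 CPM), and day 3 was spread more widely, with 2 libraries below all healthy ones and 1 above. No comparison with healthy LSECs passed (day 7: log2 -0.54 ± 0.26, edgeR adjusted p = 0.255).

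Cdh5, at chr8:104101625-104144511 on the plus strand, encodes VE-cadherin, the transmembrane protein of endothelial adherens junctions. Its level was 324, 267, 334 and 234 CPM in healthy LSECs, 590 and 618 at day 1, 319, 370, 333 and 308 at day 3, and 261, 254, 398 and 355 at day 7. Cdh5 rose at day 1, with both libraries above all others of the series, by a log2 fold change of 1.06 ± 0.22 (edgeR adjusted p = 0.0137), a level 2.09 times that of healthy LSECs. The call was held by 21 of 23 alternatives and lost when either day 1 library was left out (edgeR adjusted p = 0.139 without replicate 1, 0.0929 without replicate 2), with log2 values of 1.07 and 1.01. Such a fit has 1 day 1 library, which is assumed to vary like the libraries of the other groups. At day 3 and day 7 the values overlapped with healthy ones (log2 0.20 ± 0.18 and 0.13 ± 0.18). The log2 change from day 1 to day 3 was -0.86 ± 0.22 and did not pass (edgeR adjusted p = 0.0551, called by 11 of 23 alternatives).

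The other genes of adherens junctions were read from a list of 16, of which all were tested. At day 1, 1 was higher (2.42% of all genes were) and 1 lower (1.64%). At day 3 none was higher (4.62%) and 1 lower (2.58%), and at day 7 none was called (2.19% higher, 0.992% lower). The median log2 fold change of the list was -0.02, -0.03 and -0.08 on the 3 days. Afdn, the actin linker afadin, rose at day 1 from 96.6 ± 10.1 to 175 ± 18.1 CPM (log2 0.86 ± 0.17, edgeR adjusted p = 0.0136). Ptprb, the phosphatase VE-PTP that binds VE-cadherin, fell from 2747 ± 240 CPM to 1523 ± 139 at day 1 (log2 -0.85 ± 0.22, edgeR adjusted p = 0.0423) and 1702 ± 193 at day 3 (-0.69 ± 0.17, adjusted p = 0.0272). Leaving out healthy replicate 4 or either day 1 library ended the Afdn call (edgeR adjusted p = 0.0757 to 0.426). The Ptprb call ended at day 1 without any 1 of the healthy or day 1 libraries (0.0563 to 0.493) and at day 3 without healthy replicate 1, 2 or 3 (0.0622 to 0.0773). Of the others, Nectin1 reached 1.60 ± 0.42 on the log2 scale at day 7 without passing (edgeR adjusted p = 0.0571), at 1.47 CPM in healthy LSECs and 4.47 at day 7.

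Cldn5, the main claudin of endothelial tight junctions, is a gene of a single exon at chr16:18776847-18778262. Its level was 614, 664, 669 and 458 CPM in healthy LSECs, 168 and 242 at day 1, 211, 151, 352 and 339 at day 3, and 371, 279, 366 and 426 at day 7. All 10 libraries after CCl4 lay below all 4 healthy ones. Cldn5 fell by 1.55 ± 0.35 on the log2 scale at day 1 (edgeR adjusted p = 0.0216) and by 1.19 ± 0.27 at day 3 (edgeR adjusted p = 0.0175), to 0.341 and 0.437 of the healthy mean. At day 7 the value was -0.74 ± 0.26 and did not pass (edgeR adjusted p = 0.134). The day 3 call was held by 21 of 23 alternatives and lost without healthy replicate 2 (edgeR adjusted p = 0.0518). The day 1 call was held by 20 of 23 and lost when either day 1 library was left out (edgeR adjusted p = 0.466 without replicate 1, 0.106 without replicate 2).

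Of 22 other tight junction genes tested, none was called on any day by edgeR, with medians of -0.58, -0.26 and 0.03 on the log2 scale at day 1, day 3 and day 7. Of all genes, 4.06%, 7.19% and 3.18% were called on these days. The smallest adjusted p was that of Cldn15, another claudin, at day 1. Its level was 4.60, 2.996, 5.48 and 4.69 CPM in healthy LSECs and 15.05 and 40.3 at day 1 (log2 2.64 ± 0.83, edgeR adjusted p = 0.0997, 0.00293 to 0.543 over the alternatives). Ocln, which encodes occludin, was at 1.40 ± 1.37 CPM in healthy LSECs (0.499, 0.623, 1.06 and 3.42) and was not called on any day. Pard3, a polarity scaffold, was at 0.729, 0.811, 0.926 and 4.86 CPM in healthy LSECs. Its log2 change reached 1.69 ± 0.61 at day 7 (edgeR adjusted p = 0.138), and 1.37 to 2.87 over the alternatives. Both genes were highest among healthy LSECs in replicate 4, the library with 10750 CPM of hepatocyte markers. The part of hepatocytes in these values was not tested.

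Tjp1 encodes ZO-1, which ties tight junction proteins to actin, and lies at chr7:65296165-65527781 on the minus strand. Its level was 126, 122, 120 and 138 CPM in healthy LSECs, 111 and 112 at day 1, 62.5, 71.7, 107 and 167 at day 3, and 126, 103, 123 and 115 at day 7. No difference passed. The 95% interval of the log2 change against healthy LSECs ran from -0.85 to 0.47 at day 1, while day 3 gave -0.85 to 0.22 and day 7 gave -0.65 to 0.42. Day 3 held both the lowest and the highest library of the series.

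Junctional adhesion molecules are immunoglobulin proteins at tight junctions that also bind leukocyte integrins. F11r encodes JAM-A and lies at chr1:171437535-171464603 on the plus strand. Its level was 256, 269, 294 and 305 CPM in healthy LSECs, 242 and 307 at day 1, 130, 124, 202 and 185 at day 3, and 199, 147, 175 and 191 at day 7. All libraries of day 3 and day 7 were below all of healthy LSECs and of day 1. F11r fell by 0.81 ± 0.19 on the log2 scale at day 3 (edgeR adjusted p = 0.0206), to 0.570 of the healthy mean, and was -0.66 ± 0.19 at day 7 without passing (edgeR adjusted p = 0.0711). The day 3 call was held by 16 of 23 alternatives, with adjusted p from 4.9e-04 to 0.0777. It was lost without healthy replicate 2 (edgeR adjusted p = 0.0505), 3 (0.0567) or 4 (0.0582), and without day 3 replicate 1 (0.0546) or 2 (0.0561).

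Jam2 encodes JAM-B, a partner of JAM-C on endothelium, and lies at chr16:84774123-84825928 on the plus strand. Its level was 310, 322, 299 and 293 CPM in healthy LSECs, 636 and 956 at day 1, 583, 792, 246 and 179 at day 3, and 134, 182, 159 and 189 at day 7. Healthy libraries lay close together, both day 1 libraries were above them and all day 7 libraries below them. At day 3 replicates 1 and 2 were above every healthy library and replicates 3 and 4 below. None of the differences passed, with 1.38 ± 0.43 on the log2 scale at day 1 (edgeR adjusted p = 0.0989), 0.56 ± 0.37 at day 3 (0.417), -0.88 ± 0.37 at day 7 (0.193) and -1.44 ± 0.37 from day 3 to day 7 (0.0739). Between day 7 and day 3 no member was called by edgeR in either direction (0.413% of all genes higher, 1.36% lower), and 2 had an unadjusted p under 0.05, as did 18.8% of all genes. DESeq2 called 1 lower (4.06% of all genes), and limma-voom 2 higher (8.02%) and 1 lower (14.5%). Day 3 replicates 1 and 2 also held the higher neutrophil marker levels, with S100a8 at 992 and 590 CPM against 12.8 and 3.21 in replicates 3 and 4 (a gene chosen after its values were seen). Rspo3, a marker of large-vessel endothelium, split in the same way, at 217 and 270 CPM against 42.7 and 24.3. It too was chosen after its values were seen. The sum of the 8 large-vessel markers that include Rspo3 did not split so, at 689.8, 991.6, 622.9 and 881.2 CPM in day 3 replicates 1 to 4. The cause of the Jam2 split at day 3 was not tested. Jam3, which encodes JAM-C, was at 10.99 ± 1.07 CPM in healthy LSECs and 6.81 ± 1.03 at day 7 (log2 -0.69 ± 0.23, edgeR adjusted p = 0.11). Of its exon bases, 36.22% are shared with another annotated gene, whose reads cannot be separated without strand.

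Esam encodes a related immunoglobulin protein of endothelial tight junctions and platelets, at chr9:37528078-37538319 on the plus strand. Its level was 928, 853, 949 and 829.4 CPM in healthy LSECs, 1457 and 1666 at day 1, 526, 595, 659 and 742 at day 3, and 649, 358, 409 and 480 at day 7. No day overlapped with healthy LSECs: both day 1 libraries were above them, and all libraries of day 3 and day 7 below. The value of day 1 did not pass (log2 0.81 ± 0.23, edgeR adjusted p = 0.0685), nor did the value of day 3 (-0.50 ± 0.19, adjusted p = 0.145). Esam fell by 0.91 ± 0.19 at day 7 (edgeR adjusted p = 0.0261), to 0.533 of the healthy mean, and by 1.31 ± 0.23 from day 1 to day 3 (edgeR adjusted p = 0.0109). The day 7 call was held by 11 of 23 alternatives (adjusted p 5.61e-04 to 0.115). It was lost without any 1 of the 4 healthy libraries (edgeR adjusted p = 0.0509 to 0.0798), either day 1 library (0.0645 and 0.0648), day 3 replicate 3 (0.0503) or day 7 replicate 2, 3 or 4 (0.0921, 0.115 and 0.0893). The fall from day 1 to day 3 was held by 20 of 23 and lost without either day 1 library (edgeR adjusted p = 0.118 and 0.163). Platelets carry ESAM too, and the sum of 8 platelet markers was 27.2 to 44.7 CPM in healthy LSECs. Day 1 gave 285.9 and 103.5 CPM, the range of day 3 was 49.7 to 162.2, and that of day 7 was 24.9 to 37.6. Pf4 alone made up 255.1 and 83.98 CPM of the day 1 sums. Of the 8 markers, 3 were called higher by edgeR at day 1 (2.42% of all genes were). At day 3 the 1 called higher was Pf4 (4.62%), and at day 7 it was Itga2b (2.19%). The part of platelets in the Esam values was not tested.

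Gap junctions, the channels between neighbouring cells, were read from 6 connexin genes. Gja4, a connexin of arterial endothelium, rose at day 1 from 202 ± 34.7 to 642 ± 95.6 CPM (log2 1.66 ± 0.43, edgeR adjusted p = 0.0484). Gja5 fell at day 3 from 4.71 ± 0.785 to 1.92 ± 0.526 CPM (log2 -1.30 ± 0.29, edgeR adjusted p = 0.0188). The Gja4 call ended without any 1 of the healthy or day 1 libraries or day 7 replicate 2 or 4 (edgeR adjusted p = 0.0604 to 0.419), and the Gja5 call without healthy replicate 2 or 3 (0.056 and 0.0563). The other 4 were not called on any day, beside 4.06%, 7.19% and 3.18% of all genes called at day 1, day 3 and day 7.

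Cav1, at chr6:17306335-17341452 on the plus strand, encodes caveolin 1, the coat protein that caveolae require. It was the lowest member, at 9.03, 8.99, 9.54 and 11.3 CPM in healthy LSECs, 4.06 and 11.3 at day 1, 4.46, 4.66, 3.01 and 5.15 at day 3, and 5.19, 3.27, 16.8 and 5.43 at day 7. The day 3 libraries were all below the healthy ones, with a log2 fold change of -1.17 ± 0.46 that did not pass (edgeR adjusted p = 0.147, 0.0278 to 0.223 over the alternatives). Day 7 replicate 3 was higher than every other library of the series, and without it the day 7 value went from -0.34 to -1.04 on the log2 scale.

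Cav2, the neighbouring gene on chromosome 6, encodes caveolin 2, a partner of caveolin 1, and was far more abundant than Cav1. Its level was 354, 318, 368 and 311 CPM in healthy LSECs, 106 and 157 at day 1, 113, 69.0, 124 and 106 at day 3, and 223, 101, 106 and 157 at day 7. All 10 libraries after CCl4 were below all healthy ones. Cav2 fell by 1.36 ± 0.34 at day 1 (edgeR adjusted p = 0.0395), by 1.71 ± 0.27 at day 3 (adjusted p = 0.00317) and by 1.20 ± 0.26 at day 7 (adjusted p = 0.0286). The day 3 call was held by all 23 alternatives, the day 1 call by 10 and the day 7 call by 13. Leaving out 1 library ended the day 1 call for every healthy and day 1 library, day 3 replicates 1 and 3 and day 7 replicate 4 (edgeR adjusted p = 0.0511 to 0.585), and the day 7 call for healthy replicates 1 to 3, both day 1 libraries and day 7 replicates 2 to 4 (0.0541 to 0.112).

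Of 14 genes of caveolae and related vesicles, Cav2 included, 3 were lower at day 1 (1.64% of all genes were). At day 3, 3 were lower (2.58%) and 2 higher (4.62%), and at day 7, 1 was lower (0.992%) and 1 higher (2.19%). The medians of the 3 days were -0.35, 0.06 and -0.28. Cavin2, a coat protein of caveolae, fell from 1036 ± 111 CPM to 433 ± 91.3 at day 1 (log2 -1.26 ± 0.28, edgeR adjusted p = 0.0205) and 488 ± 66.2 at day 3 (-1.09 ± 0.22, adjusted p = 0.0102). Ehd3, a membrane-shaping ATPase of glomerular and sinusoidal endothelium, fell from 3922 ± 575 CPM to 980 ± 107 at day 1 (0.250 of the healthy level, edgeR adjusted p = 0.0112) and 1662 ± 767 at day 3 (-1.24 ± 0.29, adjusted p = 0.0232). Its relative Ehd2, which stabilises caveolae at the membrane, rose from 1.59 ± 0.623 CPM to 9.81 ± 6.80 at day 3 (log2 2.63 ± 0.63, edgeR adjusted p = 0.024) and 10.3 ± 8.07 at day 7 (2.69 ± 0.63, adjusted p = 0.0376). At day 1 the Ehd3 call ended without either day 1 library (edgeR adjusted p = 0.118 and 0.295), and so did that of Cavin2, also without healthy replicate 1 (0.0523 to 0.438). At day 3 Ehd3 was lost without healthy replicate 1, 3 or 4 or day 3 replicate 1 or 2 (0.0527 to 0.0617). Ehd2 was lost at day 3 without healthy replicate 1, 2 or 3 (0.0554 to 0.0756), and at day 7 also without either day 1 library, day 3 replicate 3 or day 7 replicate 2, 3 or 4 (0.0511 to 0.133). The libraries with the most Ehd2, day 7 replicate 2 (21.1 CPM) and day 3 replicate 4 (19.99 CPM), were also those with the highest stellate cell marker sum of their day (7650 and 2689 CPM). The part of stellate cells in the Ehd2 values was not tested.

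**Figure D4:**
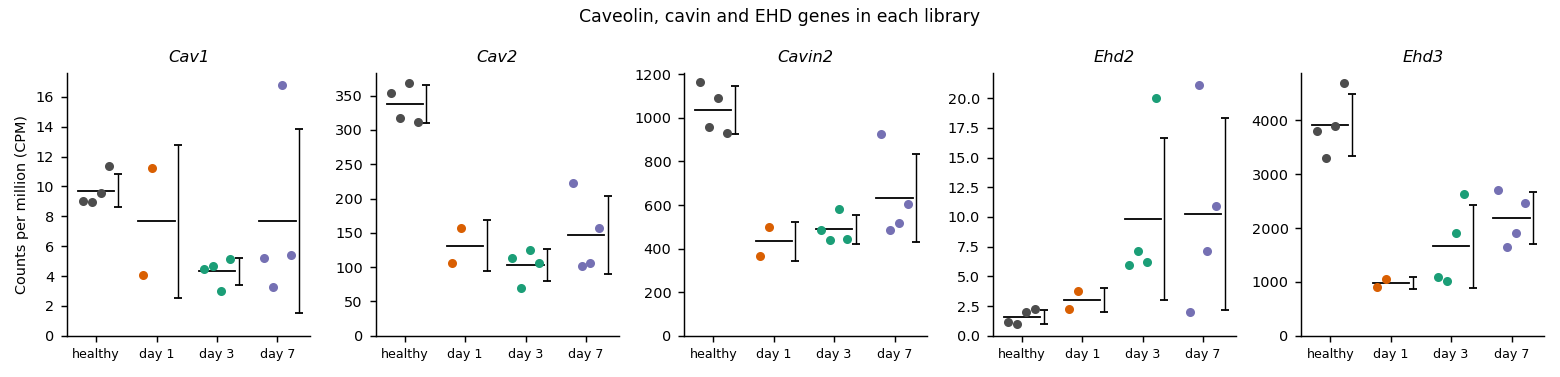
Level in CPM (axis from 0) of Cav1, Cav2, Cavin2, Ehd2 and Ehd3, 1 point per library in the order of the replicate numbers, with group mean (line) and SD (bar). Cav2 lay below every healthy library on all 3 days, while Ehd2 was high in single libraries of day 3 and day 7 such as day 7 replicate 2.

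Further gene groups surround capillarization. Of 14 sinusoidal identity genes, 2 were higher (2.42% of all genes were) and 2 lower (1.64%) at day 1. At day 3, 1 was higher (4.62%) and 3 lower (2.58%), and none was called at day 7 (2.19% higher, 0.992% lower). Lyve1, the hyaluronan receptor of sinusoids and lymphatics, rose from 387 ± 109 to 3209 ± 266 CPM at day 1 (log2 3.05 ± 0.26, edgeR adjusted p = 4.4e-05) and was 924 ± 114 at day 3 (1.25 ± 0.22, adjusted p = 0.00644). Mrc1, the mannose receptor, fell from 1546 ± 50.3 to 547 ± 115 CPM at day 1 (log2 -1.50 ± 0.27, edgeR adjusted p = 0.00756) and 596 ± 152 at day 3 (-1.38 ± 0.21, adjusted p = 0.00282). Kdr, the main VEGF receptor, fell by 1.71 ± 0.35 at day 1 (edgeR adjusted p = 0.0131). Fcgr2b, which encodes the CD32b of the sort, fell by 0.85 ± 0.20 at day 3 (edgeR adjusted p = 0.024). Both Lyve1 calls and the day 3 call of Mrc1 were held without any 1 library. The day 1 calls of Mrc1 (edgeR adjusted p = 0.0599 and 0.282) and Kdr (0.106 and 0.354) ended without either day 1 library, and the day 3 call of Fcgr2b without healthy replicate 1, 2 or 3 or day 3 replicate 2 (0.0512 to 0.0767).

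Of 14 endothelial surface glycoproteins tested, 3 were higher at day 1 (2.42% of all genes were). At day 3, 4 were higher (4.62%) and 2 lower (2.58%), and none was called at day 7 (2.19% higher, 0.992% lower). Cd93, a lectin-like receptor of endothelium, rose from 232 ± 39.6 to 1708 ± 157 CPM at day 1 (log2 2.88 ± 0.21, edgeR adjusted p = 2e-05) and was still higher at day 3 (0.73 ± 0.18, adjusted p = 0.0278). Mcam, or CD146, rose at day 1 by 1.48 ± 0.29 on the log2 scale (edgeR adjusted p = 0.0115). Tspan8, a tetraspanin, rose from 2.87 to 31.8 CPM at day 1 (log2 3.47 ± 0.62, edgeR adjusted p = 0.00705). Clec14a, a receptor at endothelial contacts, fell from 920 ± 49.5 to 382 ± 88.6 CPM at day 3 (log2 -1.27 ± 0.24, edgeR adjusted p = 0.00819). The day 1 calls of Cd93 and Tspan8 and the call of Clec14a were held without any 1 library. That of Mcam ended without healthy replicate 4 or either day 1 library (edgeR adjusted p = 0.06 to 0.249), and the day 3 call of Cd93 without healthy replicates 2 to 4, either day 1 library, day 3 replicates 1 and 3 or day 7 replicates 3 and 4 (0.0545 to 0.127).

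Basement membrane genes, the other side of capillarization, were tested as a list of 12. At day 1, 2 were higher (2.42% of all genes were) and 1 lower (1.64%), 3 were higher at day 3 (4.62%), and 1 was higher at day 7 (2.19%). Col4a2, a chain of collagen IV, rose from 283 ± 35.6 to 950 ± 61.9 CPM at day 1 (log2 1.74 ± 0.34, edgeR adjusted p = 0.0102) and was 759 ± 348 at day 3 (1.42 ± 0.29, adjusted p = 0.012). Lamb1, a laminin chain, rose from 1.65 ± 0.713 to 12.8 ± 5.64 CPM at day 3 (log2 2.95 ± 0.67, edgeR adjusted p = 0.0184) and 17.4 ± 13.7 at day 7 (3.40 ± 0.68, adjusted p = 0.0192). Lama4, a laminin chain of endothelium, fell by 1.86 ± 0.41 at day 1 (edgeR adjusted p = 0.0202). Either day 1 library left out ended the day 1 calls of Col4a2 (edgeR adjusted p = 0.0988 and 0.138) and Lama4, the latter also without healthy replicate 4 (0.0582 to 0.468). Col4a2 at day 3 was lost without healthy replicate 4 (0.0565), and Lamb1 without healthy replicate 1 or 2 at day 3 (0.06 and 0.0617) and without healthy replicates 1 to 3 or day 7 replicate 2 at day 7 (0.0548 to 0.071). The stellate cell markers given above rose at day 3 and day 7 as well, and their part in the collagen and laminin values was not tested.

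Of 23 genes that regulate junctions, 2 were higher (2.42% of all genes were) and 1 lower (1.64%) at day 1. At day 3, 1 was higher (4.62%) and 3 lower (2.58%), and 2 were lower at day 7 (0.992%). Angpt2, the ligand that opposes Tie2 signalling, rose by 1.98 ± 0.26 at day 1 (edgeR adjusted p = 8.28e-04) and by 0.81 ± 0.22 at day 3 (adjusted p = 0.0397). S1pr1, the sphingosine 1-phosphate receptor that tightens contacts, rose from 209 ± 20.1 to 604 ± 6.69 CPM at day 1 (log2 1.53 ± 0.20, edgeR adjusted p = 7.81e-04) and fell to 128 ± 14.5 at day 7 (-0.71 ± 0.17, adjusted p = 0.0394). Tek, which encodes Tie2, fell from 488 ± 20.8 to 206 ± 50.4 CPM at day 3 (log2 -1.24 ± 0.20, edgeR adjusted p = 0.00425) and 260 ± 50.9 at day 7 (-0.91 ± 0.20, adjusted p = 0.0301). Pdzd2, a PDZ domain protein, fell by 1.64 ± 0.31 at day 1 (edgeR adjusted p = 0.0085). The day 1 calls of Angpt2 and S1pr1 and the day 3 call of Tek were held without any 1 library, and that of Pdzd2 ended without either day 1 library (edgeR adjusted p = 0.0894 and 0.157). The day 3 call of Angpt2 was lost in 12 of 14 such fits (0.0566 to 0.172), the exceptions being those without healthy replicate 1 or day 7 replicate 2. The day 7 call of S1pr1 was lost in 12 of 14 (0.0561 to 0.153), the exceptions being day 3 replicates 1 and 4, and that of Tek in 10 (0.056 to 0.103), kept without day 3 replicate 1, 2 or 4 or day 7 replicate 1.

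At day 1 and day 7 the endothelial marker sum was below all healthy libraries. At day 3 it overlapped with them, as replicate 4 had 5458 CPM and the lowest healthy library 5420. Each member was therefore also set against the mean log2 CPM (prior count 2) of 6 other endothelial genes, Tie1, Tek, Erg, Egfl7, Ptprb and Eng. This reference was 9.30 ± 0.11 in healthy LSECs, 8.72 ± 0.24 at day 1, 8.45 ± 0.40 at day 3 and 8.63 ± 0.32 at day 7 (log2 CPM, SD), and some of its genes were themselves called lower by edgeR (Ptprb at day 1, Egfl7, Ptprb and Tek at day 3, Egfl7 and Tek at day 7). Differences were tested by two-sided exact permutation, whose smallest p is 0.0286 for 4 against 4 mice and 0.133 for 2 against 4, and adjusted over 30 tests. Cd34 relative to this reference was 1.81 higher at day 3 than in healthy LSECs and 1.32 higher at day 7, with no overlap of the groups on either day (exact p = 0.0286, adjusted p = 0.171 for both). Cdh5 was 1.06 higher at day 3 and 0.78 higher at day 7, and Plvap was 0.66 higher at day 3, again without overlap (exact p = 0.0286, adjusted p = 0.171 for each). The reference was lower than in healthy LSECs on all 3 days, so a gene of unchanged CPM would be higher on this scale. The log2 fold changes by edgeR were 0.20 and 0.13 for Cdh5 at day 3 and day 7, and -0.19 for Plvap at day 3. The share of all genes without overlap on this scale was not computed for any day. None of the 30 tests passed after adjustment, and 5 had an unadjusted exact p under 0.05. This outcome was nearly fixed by the group sizes. The day 1 tests could not go below 0.133, and a p of 0.0286 passes only if nearly all 4 against 4 tests reach it. No conclusion is drawn from the lack of a passing test.

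Relative to the same reference, Cldn5 was 0.41 lower at day 3 with overlap (exact p = 0.171, adjusted p = 0.303), and F11r differed by 0.01 at day 3 (exact p = 1.0), where both had fallen in CPM. Esam was -0.28 at day 7 (exact p = 0.4, adjusted p = 0.5). At day 1, where the reference itself was lower than in healthy LSECs, Jam2 was 1.92 higher, Cdh5 1.65 higher and Esam 1.38 higher, Plvap (0.59), Pecam1 (0.55) and F11r (0.53) were higher too, and Cldn5 was 0.99 lower, all without overlap and all at the smallest p that 2 against 4 mice allow (exact p = 0.133, adjusted p = 0.25). With Cdh5 alone as the reference, Plvap was -0.40 at day 3 rather than above healthy LSECs, and F11r was -1.05.

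**Figure D5:**
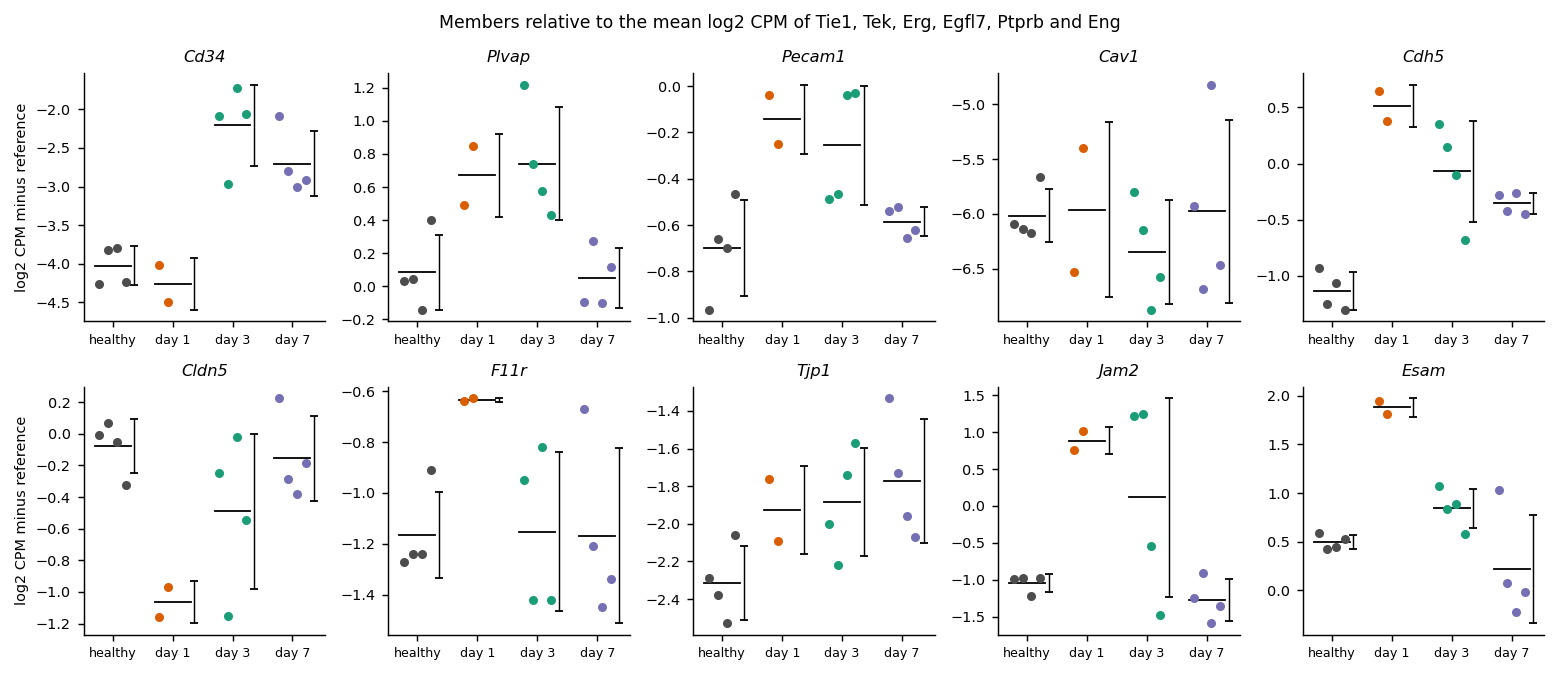
Log2 CPM of each member minus the mean log2 CPM of 6 endothelial reference genes, 1 point per library in the order of the replicate numbers, with group mean (line) and SD (bar). Cd34 and Cdh5 lay above every healthy library at day 3 and day 7, while F11r and Cldn5 at day 3 overlapped with healthy LSECs.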

How the data were processed

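RNA sequencing of LSECs sorted from 14 mice was analysed (4 healthy, 2 at day 1, 4 at day 3 and 4 at day 7). Libraries were made with SMARTseq v4. FastQC and AfterQC served for quality control, STAR for mapping to GRCm38.p6, and StringTie for assembly. The authors deposited unnormalized counts of reads for each Ensembl gene. The annotation, the use of strand and the making of whole numbers are not given in the sources used here, and the sequencing is described as both paired-end and single-end. Total counts per library ran from 46401496 to 103912264. Genes with a count numbered 34678, 34768, 28203 and 22986 in day 3 replicates 1 to 4, and 27283 to 30735 in all other libraries. The lowest correlation of log2 CPM between libraries of a group was 0.875 at day 3 and at least 0.942 in the other groups. The part of these differences in the day 3 values was not tested.

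Genes were named from GENCODE vM21, which held 54495 of 54524 rows. Counts were filtered with filterByExpr (minimum count 10, minimum total 15), scaled by TMM and tested with edgeR 4.0.16 (R 4.3.3) by the quasi-likelihood test, in 1 model of 4 group means over all libraries, with Benjamini-Hochberg adjustment over 26626 genes. Standard errors were taken from the log2 fold change and the F statistic. Permutation tests used scipy 1.17.1. Tried besides were DESeq2 1.42.0, voom with quality weights in limma 3.58.1, scaling by RLE or by library size alone, 2 further filters, fits of 2 groups, the replicate number as a block, and leaving out each library, or 2 together (chosen after seeing the data).

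Named genes were the 10 members, up to 4 genes per list with the smallest adjusted p against healthy LSECs, and Jam3 and Cav2 as relatives of members. The members and lists were chosen with earlier results of these data known. Of the listed genes, 1 (Cd99) was not in the table. Each library is taken as 1 mouse, and p-values measure the spread between these libraries. Intervals cover the model's error only. Promoters come from RefSeq, and proteins were not used here.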

Additional observations from a re-analysis of the deposited data

Results flagged for a closer look

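In 30 groups of 4 libraries (10 members, 3 groups), 1 held a library far from the rest, and chance alone would flag about 1 in 20. This was Cav1 at day 7, where replicate 3 had 16.8 CPM and the others 3.27 to 5.43 CPM. Of the members, 2 changed differently at day 3 than at day 1, by the edgeR test of the difference itself. Cd34 was higher at day 3 than at day 1 by 1.90 on the log2 scale (edgeR adjusted p = 0.0241), with all 4 libraries above both day 1 libraries. Esam fell by 1.31 between these days (edgeR adjusted p = 0.0109), with all 4 libraries below both. Both calls were lost when either day 1 library was left out. The cause of these differences was not tested.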

How the results depend on the processing

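No fold change of a called member changed sign under any alternative. The counts of called members depended on the setting, and the cause was not tested. The share of all genes called on day 1, day 3 and day 7 was 4.06%, 7.19% and 3.18%. By DESeq2 it was 10.7%, 14.2% and 10.2%, by limma-voom 16.2%, 27.3% and 26.5%, and with 2 groups 10.2%, 5.14% and 14.6%. It was 2.23%, 5.2% and 1.63% with the replicate block. With RLE factors it was 4.04%, 7.12% and 2.98%, with library size only 3.59%, 6.04% and 2.68%, and without a filter 1.86%, 3.47% and 1.34%. With at least 10 counts in every sample it was 8.11%, 14.6% and 6.95%, and without 2 libraries 5.58%, 8.84% and 9.6%. From day 1 to day 3 the share of the edgeR fit described above was 2.54%, against 9.04% by DESeq2, 12.6% by limma-voom and 0.762% with 2 groups. It was 2.53% with RLE factors, 5.12% with at least 10 counts in every sample, 5.06% without 2 libraries and 1.17% with the replicate block. From day 3 to day 7 the share was 1.77%, against 6.7% by DESeq2, 22.5% by limma-voom, 0.00451% with 2 groups and 6.44% without 2 libraries. Over the fits that leave out 1 healthy, day 3 or day 7 library, the share was 2.69% to 6.98% at day 1. It was 3.56% to 12.5% at day 3 and 0.726% to 8.19% at day 7 in these fits. From day 1 to day 3 they gave 1.82% to 3.52%, and from day 3 to day 7 0.0984% to 6.25%. At day 1 (1 higher, 1 lower) 3 members were higher by DESeq2, limma-voom and fits of 2 groups and 2 without the 2 libraries left out together, while 2 were lower by limma-voom and 0 with the replicate block. At day 3 (1 higher, 2 lower) 0 were higher with RLE factors, library size only, no filter, 2 groups, the replicate block or 2 libraries left out, and 5 were lower by limma-voom and 1 with library size only or 2 groups. At day 7 (0 and 1), 3 were lower by DESeq2, 6 by limma-voom, 5 with 2 groups, and 0 with library size only or the replicate block. From day 1 to day 3 (1 and 1), 0 were higher with 2 groups or the replicate block, and 3 were lower by DESeq2, 5 by limma-voom, 2 with RLE factors, at least 10 counts in every sample or 2 libraries left out, and 0 with 2 groups. From day 3 to day 7 (0 and 0), limma-voom called 2 higher and 1 lower, and DESeq2 and the fit without 2 libraries 1 lower. Leaving out each library gave 0 to 2 higher and 0 to 1 lower at day 1, 0 to 1 and 0 to 3 at day 3, 0 to 2 lower at day 7, 0 to 1 higher and 0 to 2 lower from day 1 to day 3, and 0 to 1 lower from day 3 to day 7.

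Genes of the other lists (11 higher and 8 lower at day 1, 11 and 14 at day 3, 2 and 4 at day 7) numbered 17 higher and 17 lower at day 1, 17 higher at day 3, and 8 and 13 at day 7 by DESeq2. Of all genes, edgeR called 2.42% higher and 1.64% lower at day 1, 4.62% and 2.58% at day 3, and 2.19% and 0.992% at day 7. The shares by DESeq2 were 4.58% and 6.08% at day 1, 8.83% higher at day 3, and 6.46% and 3.74% at day 7. By limma-voom the genes of the other lists numbered 24 and 24, 17 and 43, and 19 and 31. The shares of all genes were 9.45% and 6.73%, 15.9% and 11.4%, and 13.5% and 13%. With 2 groups the listed genes numbered 17 and 19 at day 1 (5.2% and 5.02% of all genes), 6 higher at day 3 (2.93%) and 23 lower at day 7 (7.9%). With the replicate block they were 4 lower at day 1 (0.879% of all genes), 6 higher at day 3 (3.18%), and 0 and 2 at day 7 (1.15% and 0.488%). With library size only, 7 were lower at day 3 (1.51% of all genes), and 4 and 1 were called at day 7 (2.32% and 0.353%). Without a filter 6 were higher at day 3 (1.64% of all genes), and with at least 10 counts in every sample 6 were higher at day 7 (5.33%). Without 2 libraries they were 17 and 9 at day 7 (6.25% and 3.35%). Leaving out each library gave 5 to 15 higher and 0 to 12 lower at day 1, 2 to 12 and 6 to 29 at day 3, and 0 to 9 and 1 to 12 at day 7.

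Signs turned only for members not called. At day 1, Plvap (0.05) went to -0.00237 without a filter and -0.36 to 0.32 over the leave-one-out fits, Pecam1 (-0.03) to 0.25 with the replicate block and -0.12 to 0.0195, F11r (-0.03) to 0.12 with the block and -0.25 to 0.0936, and Cav1 (-0.34) to between -1.29 and 0.17. From day 1 to day 3, Cldn5 (0.36) was -0.11 by limma-voom, Tjp1 (-0.12) 0.0176 with library size only and -0.52 to 0.0424, Plvap (-0.24) -0.62 to 0.0648 and Cav1 (-0.83) -1.46 to 0.00621. From day 3 to day 7, limma-voom gave 0.15 for Cd34 (-0.41) and 0.29 for Pecam1 (-0.22), which was 0.14 without 2 libraries and -0.35 to 0.14 over leave-one-out fits, and Cdh5 (-0.07) was 0.0457 with at least 10 counts in every sample and -0.069 to 0.13. With Cdh5 alone as the reference, Plvap was -1.06, Pecam1 -1.09, Esam -0.26 and F11r -1.12 at day 1, and Plvap was -0.40 and F11r -1.05 at day 3. Relative to all 6 reference genes, leaving out libraries gave 0.50 to 0.62 for F11r at day 1 and -0.10 to 0.10 at day 3.

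The labels' replicate numbers did not pair the mice: 0 of 18 pairs with the same number correlated over 0.1 (highest 0.0962), and 0 mice correlated best with their own number. The block ended the Cldn5 call at day 1 (-1.39, adjusted p = 0.0812) and those of Cd34 at day 3 (0.98, adjusted p = 0.0901), Esam at day 7 (-0.92, adjusted p = 0.0561) and Cd34 from day 1 to day 3 (1.63, adjusted p = 0.0901). Over all genes, 1080 were called at day 1, 1915 at day 3 and 846 at day 7, against 2839, 3791 and 2714 by DESeq2, 4308, 7265 and 7047 by limma-voom, 2327, 1108 and 3156 with 2 groups, and 594, 1385 and 435 with the replicate block. Higher genes made up 64.2% of the calls at day 3 and 68.8% at day 7, and 75.1% and 86.8% with library size only. The share at day 3 was 47.3% without a filter and 49.3% without day 3 replicate 3, and at day 7 it was 46% with 2 groups, 51% by limma-voom and 91.1% without day 7 replicate 3.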
